A study of Mus musculus with 18 samples.

Results

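Genes of gluconeogenesis and hepatic glucose handling, 9 in all, were followed in the livers of control and hypothyroid mouse pups, namely Pck1, G6pc, Fbp1, Pcx, Slc2a2, Pklr, Ppargc1a, Tat and Gys2. They were chosen by name, and their probes were found through the gene name or the accession that the array gives each probe. Of these 9 genes, 8 had a probe with a matched accession and Pck1, the cytosolic PEP carboxykinase, was not analysed here. Slc2a2 had 2 probes, so that 9 of the 41174 probes on the array belonged to these genes, which are 8 of the 16535 genes named on it. All 9 of these probes were among the 32053 that were read above background and tested. None of their liver spots was saturated.

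The animals were C57BL/6 male pups at post natal day (PND) 15, with 5 control and 5 hypothyroid livers, each from a different litter. Dams of the hypothyroid pups drank 1% sugar water with 0.05% methimazole (MMI) and 1% perchlorate from PND 12, and dams of the controls drank the sugar water alone. Both groups received PBS by injection on the day they were killed. MMI and perchlorate block hormone synthesis and iodide uptake in the thyroid and were given through the dam and her litter for a few days, so the model is a short loss of thyroid hormone (TH) in a suckling pup. Whole liver RNA of each pup was hybridised on a 2-colour array against a universal mouse reference RNA, and the value reported is the log2 ratio of liver over reference. RNA from whole liver cannot tell fewer cells of a type from less RNA per cell.

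Gluconeogenesis makes glucose from lactate, glycerol and amino acids. Pyruvate carboxylase (Pcx) and PEP carboxykinase carry pyruvate past the irreversible step of glycolysis, fructose-1,6-bisphosphatase (Fbp1) and glucose-6-phosphatase (G6pc) complete the path, and GLUT2 (Slc2a2) lets glucose pass the hepatocyte membrane. Liver pyruvate kinase (Pklr) runs the opposing glycolytic step, glycogen synthase 2 (Gys2) stores glucose, tyrosine aminotransferase (Tat) feeds amino acid carbon into the path, and PGC-1alpha (Ppargc1a) is a coactivator of these genes in fasting. TH is known to raise hepatic glucose output, and the suckling liver depends on gluconeogenesis because milk is rich in fat.

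In each of the 8 genes the mean log2 ratio was higher in the hypothyroid livers than in the controls, by 0.26 to 0.84, although after each array's ratios were divided by their slope on the other arrays this held for 4 of 8. Over all probes tested the mean was higher in 46.2%, and in 49.3% without control 616, where the 8 genes were again all higher. None of the 8 passed an adjusted p of 0.05 by limma, a threshold passed by 0.00624% of all probes tested. At an unadjusted p of 0.05, Tat alone passed (none with slide as a fixed block), where 3.34% of all probes passed with a higher mean. Of the probes with a mean ratio above 2, to which all 8 genes but Pklr belong, 11.8% passed so, and 12.1% without control 616. In G6pc, Tat and Gys2 each hypothyroid array was above each control array, which was so for 1.07% of all probes. Without control 616 the same 3 genes had no overlap (1.49% of all probes), G6pc and Tat passed at an unadjusted p of 0.05 with a higher mean (3.43% of all probes), and none passed after adjustment (0.0936%). The sizes of the differences depend in part on control 616, the array described next.

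Control 616 stood apart from the other arrays. Its log2 ratios had a slope of 0.61 on the mean of the other arrays, where the other 9 arrays had slopes of 0.97 to 1.06. It was the lowest of the 10 arrays for each of these genes except Ppargc1a. The mean ratio of 7 of the genes, leaving out Tat, which has no value on 1 array, was 2.66 on control 616 and 3.90 to 4.09 on the other control arrays, against 4.10 to 4.39 on the hypothyroid arrays. The 1484 probes with a mean ratio above 2 behaved alike, with a median of 2.35 on control 616 and 2.95 to 3.25 on the other 9 arrays. Of these liver-rich probes 81.9% had a higher mean in the hypothyroid group, with a median difference of 0.26, and 4.25% had groups that did not overlap, hypothyroid higher. The median difference over the 8 genes was 0.39. Without control 616 it was 0.18, beside a median of 0.08 over the liver-rich probes, of which 66.1% were then higher. Dividing each array by its slope turned the difference to -0.18 in G6pc, -0.14 in Pcx, -0.11 in Tat and -0.23 in Gys2, and placed control 616 at 5.49, 4.14, 5.61 and 6.17, above each other array read. The ratio differences of the 8 genes are given with and without control 616. Those of other genes are given with it unless stated otherwise.

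The labels place liver in the Cy5 channel on every array, but the ratios of slide 141 (control 832 and hypothyroid 576) had the reverse sign, with correlations of -0.97 and -0.98 with the other arrays. Its channels were exchanged here, and with the dyes as labelled the difference turned to -0.27 in Ppargc1a and stayed positive in the other 7 genes. Known TH targets were read as a check of the treatment. Dio1, the hepatic deiodinase, differed by -0.94 (adjusted p = 0.604), Thrsp by -1.16 (adjusted p = 0.346) and Me1, malic enzyme, by -0.48 (adjusted p = 0.274) by limma, and the groups did not overlap in Me1. Without control 616 the differences were -1.27, -1.38 and -0.44.

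The promoters of G6pc and Tat are shown because these genes, with Gys2, are those in which the groups did not overlap. The sequences are RefSeq's (GRCm38.p6), from 250 bases before to 50 bases after the start of the transcript, on the plus strand. A promoter was found for 8 of the 9 genes, Pck1 included, and not for Gys2. The G6pc promoter lies at chr11:101367466-101367765 and the Tat promoter at chr8:109990186-109990485. Capitals mark exact matches to any of 12 motifs, on either strand.
G6pc: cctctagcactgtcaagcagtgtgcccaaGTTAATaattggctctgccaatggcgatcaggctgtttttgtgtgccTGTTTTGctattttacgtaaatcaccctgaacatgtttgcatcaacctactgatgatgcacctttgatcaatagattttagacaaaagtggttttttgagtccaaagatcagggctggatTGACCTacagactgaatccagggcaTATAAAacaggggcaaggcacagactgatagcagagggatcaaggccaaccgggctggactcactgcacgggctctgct
Tat: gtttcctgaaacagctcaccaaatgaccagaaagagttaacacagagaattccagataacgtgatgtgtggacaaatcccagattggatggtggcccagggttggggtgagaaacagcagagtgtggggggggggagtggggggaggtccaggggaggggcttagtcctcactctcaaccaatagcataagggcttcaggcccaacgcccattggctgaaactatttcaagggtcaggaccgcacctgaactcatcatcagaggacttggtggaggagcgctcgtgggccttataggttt
In the G6pc promoter the capitals mark, in order, GTTAAT, part of an HNF1 site, at -221, TGTTTTG, the core of an insulin response sequence, at -174, TGACCT, the TH receptor motif AGGTCA on the other strand, at -54, and a TATAAA box at -29. AGGTCA was found in 16.3% of all 32851 promoters of this length, TGTTTTG in 6.28%, GTTAAT in 7.10% and TATAAA in 13.6%. Tat has no capitals, as none of the motifs was found in its window. The other motifs searched were TGACGTCA and its core TGACG (the cAMP response element), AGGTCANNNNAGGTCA (a direct repeat bound by TH receptors), TGTTCT (glucocorticoid receptor), TGTTTAC (FOXO), CAAAGTCC (HNF4), TTGCGCAA (C/EBP) and CACGTG (the E-box of carbohydrate response elements). AGGTCA overlaps the direct repeat, and TGACG overlaps the cAMP response element. Among the 10 promoters of these genes AGGTCA was also found at Slc2a2, at 1 of the 2 Pcx starts and at 1 of the 2 Pklr starts, TGACG at Pck1 and Ppargc1a, GTTAAT at Pck1, CACGTG at Pcx and TATAAA at Pklr. The direct repeat was found in none of the 10 and in 0.0152% of all promoters. A match is a run of letters and no binding was measured.

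G6pc catalyses the last step, which frees glucose from glucose-6-phosphate. Its log2 ratio was 4.14, 4.31, 4.36, 3.34 and 4.31 on control arrays 881, 832, 522, 616 and 391, and 4.47, 4.46, 4.46, 4.46 and 4.46 on hypothyroid arrays 891, 576, 311, 723 and 626. The hypothyroid values lay together just above the highest control, while control 616 was low. The difference was 0.37 ± 0.17 (SE, n = 5 per group), a 1.29-fold higher mean ratio, with an adjusted p of 0.673 by limma. The exact permutation test over all assignments of arrays gave p = 0.00794 (two-sided), the smallest that 5 against 5 can give, and p = 0.00794 also for Tat and Gys2. Groups that do not overlap always give this smallest p, so it restates the separation. The same exact permutation test gave p = 0.0635 for Pcx, 0.190 for Fbp1, 0.214 for Pklr, 0.349 for Ppargc1a, and 0.254 and 0.413 for the 2 probes of Slc2a2. Without control 616 the difference was 0.18 ± 0.06 (limma adjusted p = 0.485). The SD of the 5 hypothyroid arrays was 0.0045, the smallest of 27364 probes, whose median SD was 0.13. With the scanner software's own processed signals it was 0.05.

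Tat opens the breakdown of tyrosine and is a classic glucocorticoid-responsive gene of the liver around birth. Its log2 ratio was 4.45, 4.53, 3.41 and 4.49 on control arrays 881, 832, 616 and 391. The spot of control 522 was marked as an outlier by the scanner software and was left out, and it read 3.69 when it was kept. The hypothyroid values were 4.80, 4.65, 5.02, 4.86 and 4.81. Each hypothyroid array was above each control array, with or without control 616 and with the marked spot kept. The difference was 0.61 ± 0.21 (SE, n = 4 and 5), 1.52-fold, with a 95% interval of 0.10 to 1.11, an unadjusted p of 0.0181 and an adjusted p of 0.598 by limma. Without control 616 it was 0.34 ± 0.09 (limma unadjusted p = 0.00302, adjusted p = 0.272). With slide as a fixed block the difference was 0.62 and no longer passed, with an unadjusted p of 0.0771 by limma, and with slide as a random block it was 0.61 with an unadjusted p of 0.0142.

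Gys2, the liver form of glycogen synthase, was at 5.38, 5.42, 5.42, 3.75 and 5.42 on the control arrays in the same order. The hypothyroid arrays were at 5.43, 5.45, 5.43, 5.61 and 5.46. The groups were apart only by a narrow margin, with hypothyroid 723 high and control 616 low, and the other 8 arrays lay within 5.38 to 5.46. The difference of 0.40 ± 0.29 (SE, n = 5 per group, limma adjusted p = 0.757) was 0.07 ± 0.06 without control 616 (limma adjusted p = 0.907).

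**Figure D1:**
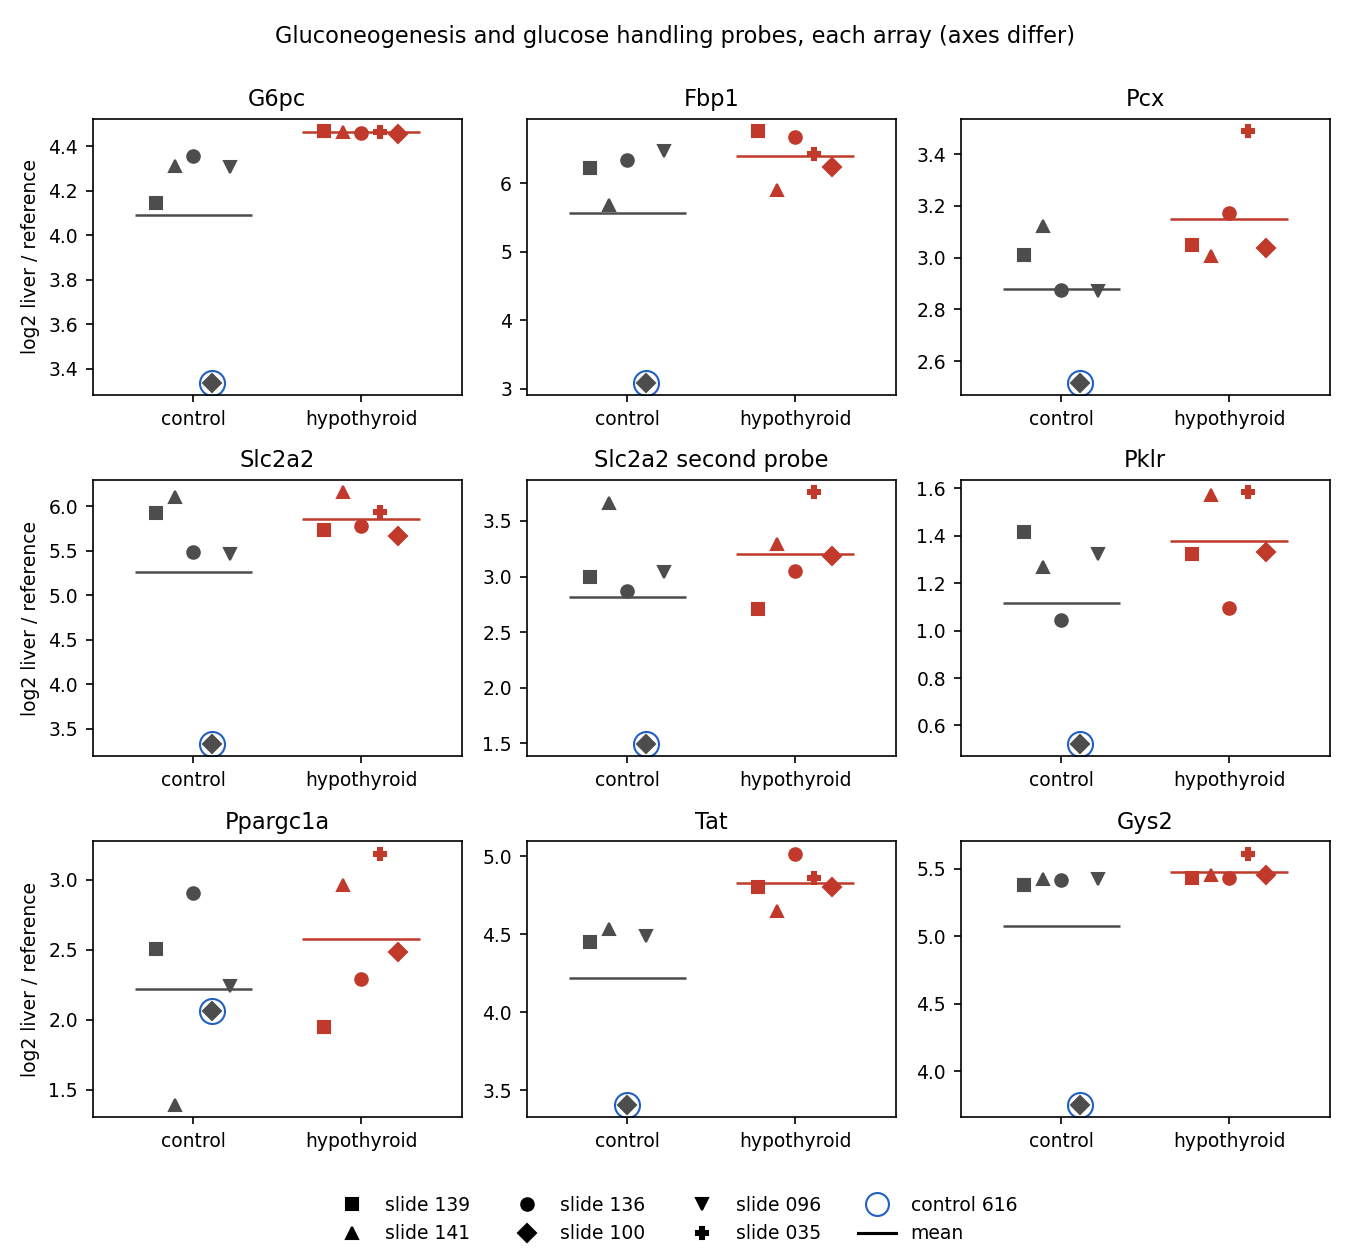
Log2 liver over reference ratio of the 9 probes on each array. Points are arrays, the shape gives the slide, horizontal lines are group means, the circle is control 616, and each panel has its own axis. Control 616 is the lowest array in each panel except Ppargc1a, and in G6pc, Tat and Gys2 the hypothyroid arrays lie above each control array.

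Fbp1, which removes a phosphate from fructose-1,6-bisphosphate, had ratios of 6.22, 5.68, 6.33, 3.09 and 6.47 on the control arrays and 6.76, 5.90, 6.67, 6.43 and 6.24 on the hypothyroid arrays. The groups overlapped, and control 616 lay more than 2 log2 units under the other controls. The difference was 0.84 ± 0.56 (SE, n = 5 per group, limma adjusted p = 0.737) and 0.22 ± 0.19 without control 616 (limma adjusted p = 0.889). On control 616 the raw reference signal of this probe was 22809, where the other Cy5-liver arrays read 1000 to 2041. Its raw liver signal was 148789, under the 179215 to 317683 of those arrays.

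Pcx, the mitochondrial entry step, was at 3.01, 3.12, 2.88, 2.52 and 2.87 on the control arrays. On the hypothyroid arrays it was at 3.05, 3.01, 3.17, 3.49 and 3.04. The groups overlapped, with hypothyroid 723 highest. The difference was 0.27 ± 0.13 (SE, n = 5 per group, limma adjusted p = 0.673), with a 95% interval of -0.02 to 0.56, and 0.18 ± 0.10 without control 616.

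Slc2a2 was read by 2 probes. The brighter one gave 5.93, 6.10, 5.49, 3.33 and 5.46 on the control arrays and 5.73, 6.16, 5.78, 5.94 and 5.67 on the hypothyroid arrays, and its reference spot was above background on 9 of 10 arrays. The second gave 2.995, 3.66, 2.87, 1.50 and 3.04 on the control arrays and 2.71, 3.29, 3.05, 3.76 and 3.18 on the hypothyroid arrays. In both the groups overlapped and control 616 was lowest. The differences were 0.59 ± 0.44 and 0.39 ± 0.34 (SE, n = 5 per group, limma adjusted p = 0.759 and 0.792), and 0.11 ± 0.15 and 0.06 ± 0.20 without control 616.

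Pklr, the glycolytic enzyme of the set, was at 1.41, 1.27, 1.05, 0.52 and 1.32 on the control arrays and at 1.32, 1.57, 1.09, 1.58 and 1.33 on the hypothyroid arrays. The groups overlapped, and the difference was 0.26 ± 0.16 (SE, n = 5 per group, limma adjusted p = 0.731). Without control 616 it was 0.12 ± 0.11.

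Ppargc1a varied most among the arrays other than control 616. It was at 2.50, 1.39, 2.91, 2.06 and 2.24 on the control arrays and at 1.95, 2.96, 2.29, 3.19 and 2.48 on the hypothyroid arrays, so that both groups spanned more than 1 log2 unit and overlapped widely. The difference was 0.35 ± 0.29 (SE, n = 5 per group, limma adjusted p = 0.778), with a 95% interval of -0.32 to 1.03. It was 0.31 ± 0.30 without control 616 and 0.05 without slide 141.

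Values for the liver and the reference channel were also examined, since the same reference RNA was used on each array. Both were rebuilt from the loess ratio and the mean log2 intensity of the 2 channels, which was quantile normalized across arrays. The 2 readings are therefore not independent of each other. In the liver channel, G6pc was 0.84 ± 0.18 higher on the hypothyroid arrays (limma unadjusted p = 0.000672, adjusted p = 0.249), Tat 0.97 ± 0.21 (0.00088, adjusted p = 0.279) and Gys2 0.67 ± 0.25 (0.0203, adjusted p = 0.799). Fbp1 was 0.46 ± 0.18 higher (0.0261, adjusted p = 0.799). Without control 616 these differences were 0.78 ± 0.18, 0.83 ± 0.19, 0.44 ± 0.16 and 0.30 ± 0.12. These 4 genes passed at an unadjusted p of 0.05 with a higher mean, as did 3.15% of all probes, and 0.00312% of all probes passed after adjustment. Among the probes with a mean ratio above 2, to which all 8 genes but Pklr belong, 13.5% passed so. Liver channel values of the groups overlapped in G6pc, Gys2 and Fbp1 and not in Tat, where controls read 13.33 to 14.03 and hypothyroid livers 14.18 to 15.18 (no overlap with higher values in 1.03% of all probes and 6% of those with a mean ratio above 2).

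The reference channel of the same spots differed between the groups too. Without control 616 it was 0.60 ± 0.18 higher on the hypothyroid arrays in G6pc (limma unadjusted p = 0.00771), 0.49 ± 0.19 in Tat (limma unadjusted p = 0.0283) and 0.37 ± 0.13 in Gys2 (limma unadjusted p = 0.0167). Across the arrays other than control 616 it followed the liver channel, with Pearson's r of 0.98 in G6pc, 0.94 in Tat and 0.99 in Gys2 over 9, 8 and 9 arrays that share slides and scans. Among all 31633 probes read on each array, the median r was 0.60, 1.48% had a reference channel difference at an unadjusted p of 0.05, and 0 passed limma's adjusted p of 0.05 with all 10 arrays. Such a difference was more frequent among probes with higher ratios, at 8.07% of those with a mean ratio above 2 and 12.5% of those above 3 without control 616, and G6pc, Tat and Gys2 have ratios above 4. Without control 616 the reference channel differed by -0.07 to 0.08 in Fbp1, Slc2a2 and Ppargc1a, within its SE, by -0.14 ± 0.13 in Pcx and by -0.32 ± 0.18 in Pklr. What moved the reference reading was not tested. The ratio differences of G6pc, Tat and Gys2 are accordingly smaller than those of their liver channel.

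**Figure D2:**
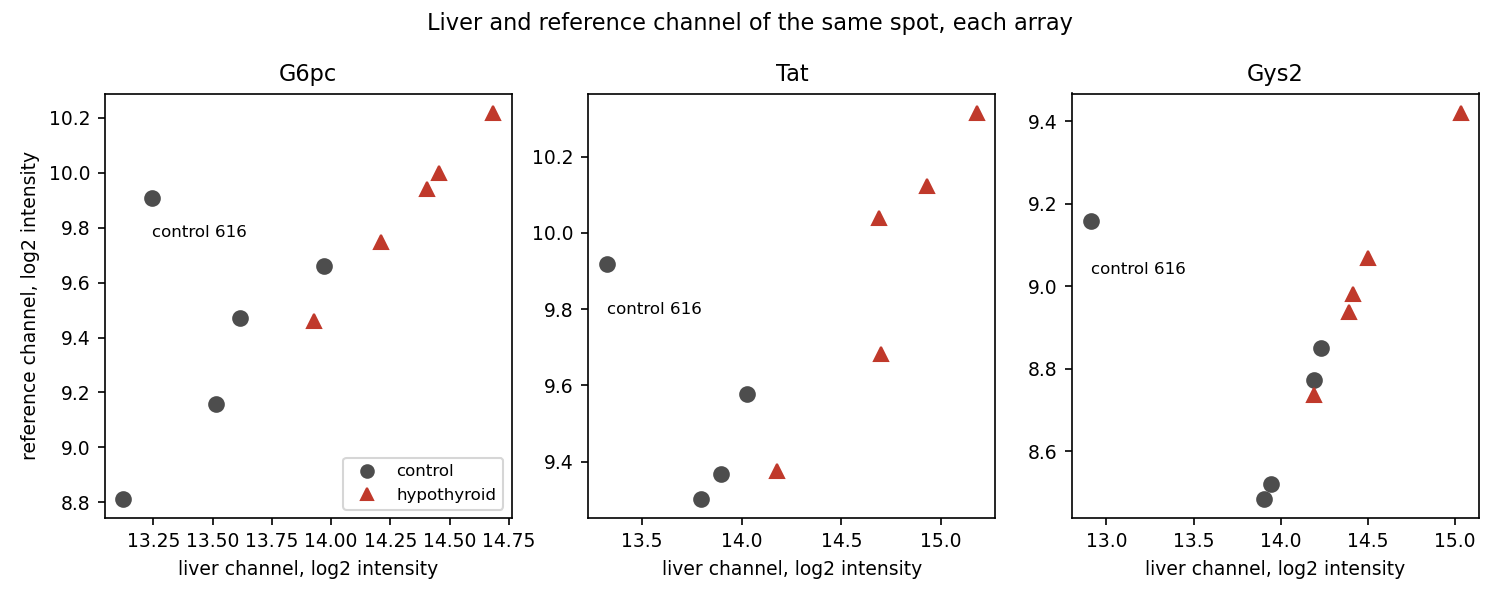
Normalized log2 intensity of the reference channel against that of the liver channel for the G6pc, Tat and Gys2 spots. Each point is an array, circles are control and triangles hypothyroid. Apart from control 616, which has a high reference reading for its liver reading, the channels go up together, with r from 0.94 to 0.99.

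**Figure D3:**
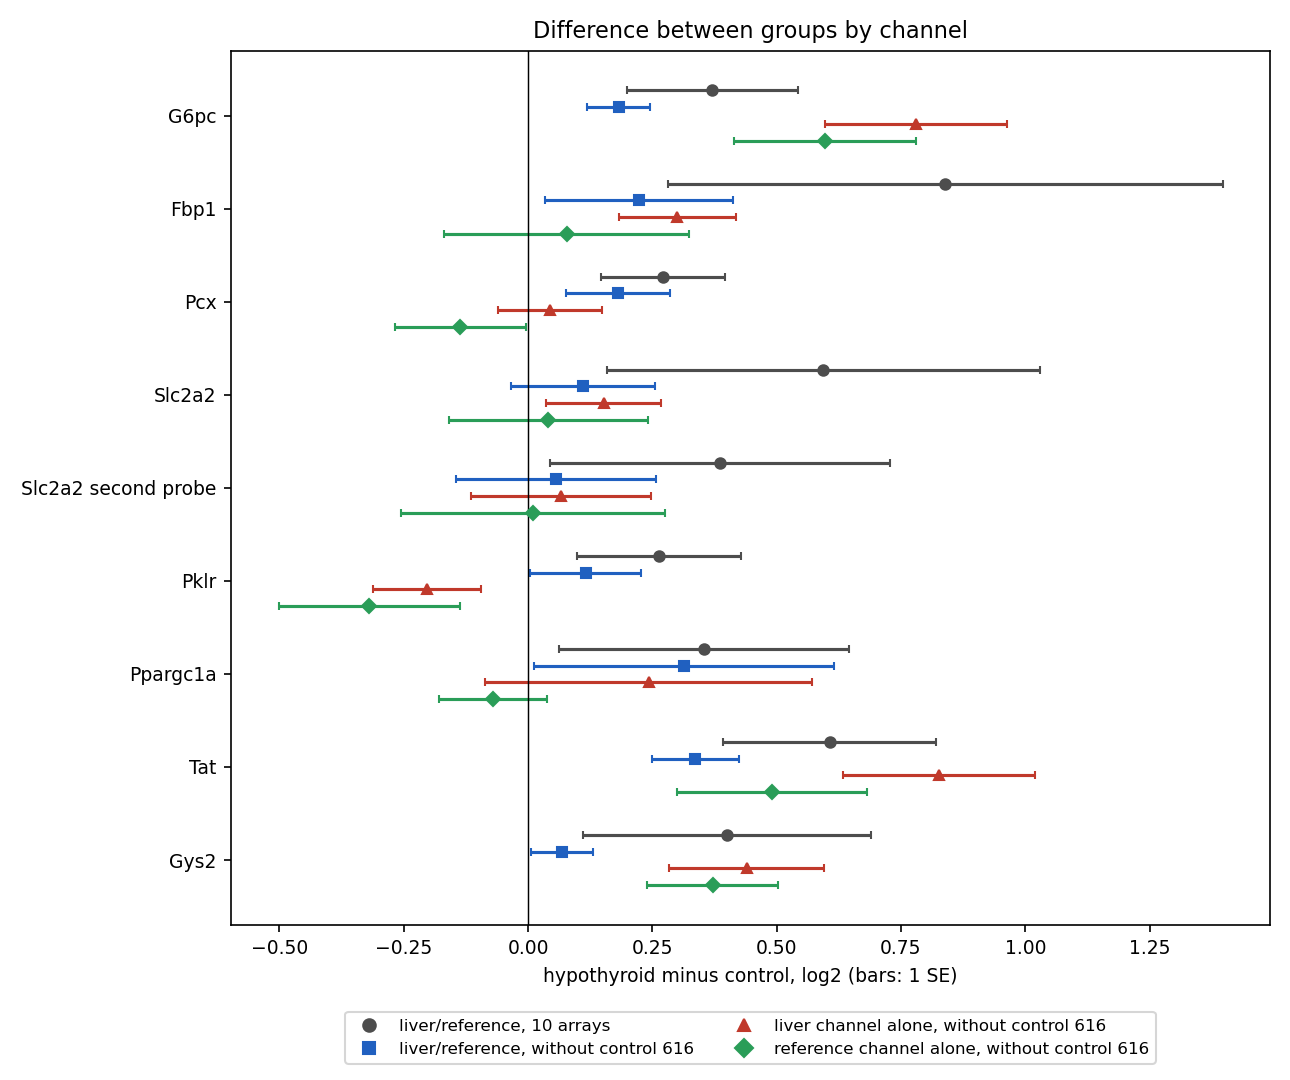
Hypothyroid minus control difference in log2 units for each probe, with bars of 1 SE from limma. Colours and shapes give the ratio on 10 arrays, the ratio without control 616, and the liver and the reference channel without control 616. Leaving out control 616 brings Fbp1 from 0.84 to 0.22, and G6pc and Tat have reference channel differences of 0.60 and 0.49.

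Of the 6 slides, 4 held an array of each group, so that the groups could be set against each other on the same slide, which was also the same scan. Of 35 such differences, 28 were above 0, and 24 with median centring and 26 in the liver channel. They come from 9 probes, 2 of them of Slc2a2. For comparison, 81.9% of the probes with a mean ratio above 2 had a higher hypothyroid group mean over the 10 arrays. On slide 100, which held control 616, the 9 probes differed by 0.42 to 3.15, all above 0. On the other slides 7 of 8 (slide 136), 5 of 9 (slide 139) and 7 of 9 (slide 141) were above 0, with medians of 0.14, 0.04 and 0.12. G6pc differed by 0.10, 0.32, 0.15 and 1.12 on slides 136, 139, 141 and 100. Fbp1 differed by 0.34, 0.54, 0.22 and 3.15 on the same slides. Tat differed by 0.35, 0.12 and 1.40 on the 3 slides where it was read in both groups. These 3 genes were higher in the hypothyroid array of each slide, as was Gys2, by 0.02 to 0.05 outside slide 100. With median centring Gys2 differed by -0.04 and -0.05 on slides 139 and 141. Ppargc1a differed by -0.62 and -0.55 on slides 136 and 139 and by 1.57 and 0.42 on slides 141 and 100.

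**Figure D4:**
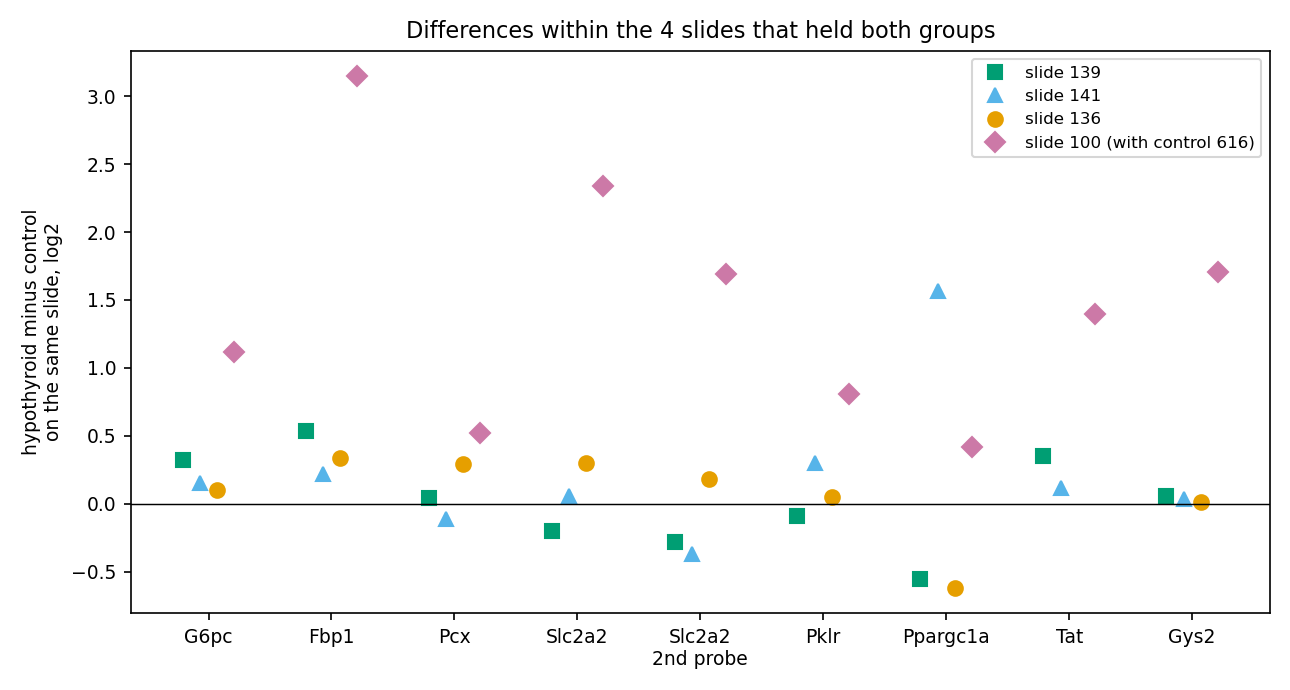
Difference in log2 ratio between the hypothyroid and the control array of the same slide, for each probe and each of the 4 slides that held both groups. Points above the line at 0 are higher in the hypothyroid array. Slide 100, which held control 616, gives the largest difference for each probe except Ppargc1a, whose largest is on slide 141.

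With all 10 arrays the genes followed each other, with a median Pearson's r of 0.79 over the 28 pairs. Without control 616 the median was 0.28, with a range of -0.62 (Fbp1 and Slc2a2) to 0.83 (Pcx and Gys2), and G6pc with Tat was at 0.82. The genes whose pattern over the arrays was most like that of Tat were Gls2, the liver glutaminase, Kyat3, an aminotransferase of kynurenine, and Abcc2, a bile canalicular transporter. Their r over 9 arrays was 0.99 each, and 0.96, 0.96 and 0.94 without control 616. For Fbp1 they were Fabp1, Serpinc1 and Ndrg2, with r of 0.95, 0.96 and 0.95 without control 616. For G6pc they were Hbb-bt, Pcyt2 and Sord, with r of 0.94, 0.92 and 0.92 without it. Hbb-bt is a globin gene with near-identical copies, which a probe may not tell apart. For Gys2 they were Serpina6, Pipox and Aadac, whose r was 0.76, 0.67 and 0.63 without it.

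The wider pathway was read from 7 lists with 156 other genes, of which 147 had a probe and 143 were tested. None passed an adjusted p of 0.05 by limma, while 11 were higher and 12 lower at an unadjusted p of 0.05, against 3.34% and 4.07% of all probes. Groups did not overlap in 7 with higher and 4 with lower hypothyroid values, against 1.07% and 1% of all probes. The median difference was 0.04 over these genes and -0.01 over all probes. Without control 616, 16 were higher and 14 lower at an unadjusted p of 0.05 by limma (3.43% and 3.92% of all probes). The median difference over these genes was then 0.03. The median ratio in the control livers was 4.16 for the 8 genes and 0.34 for the wider pathway.

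**Figure D5:**
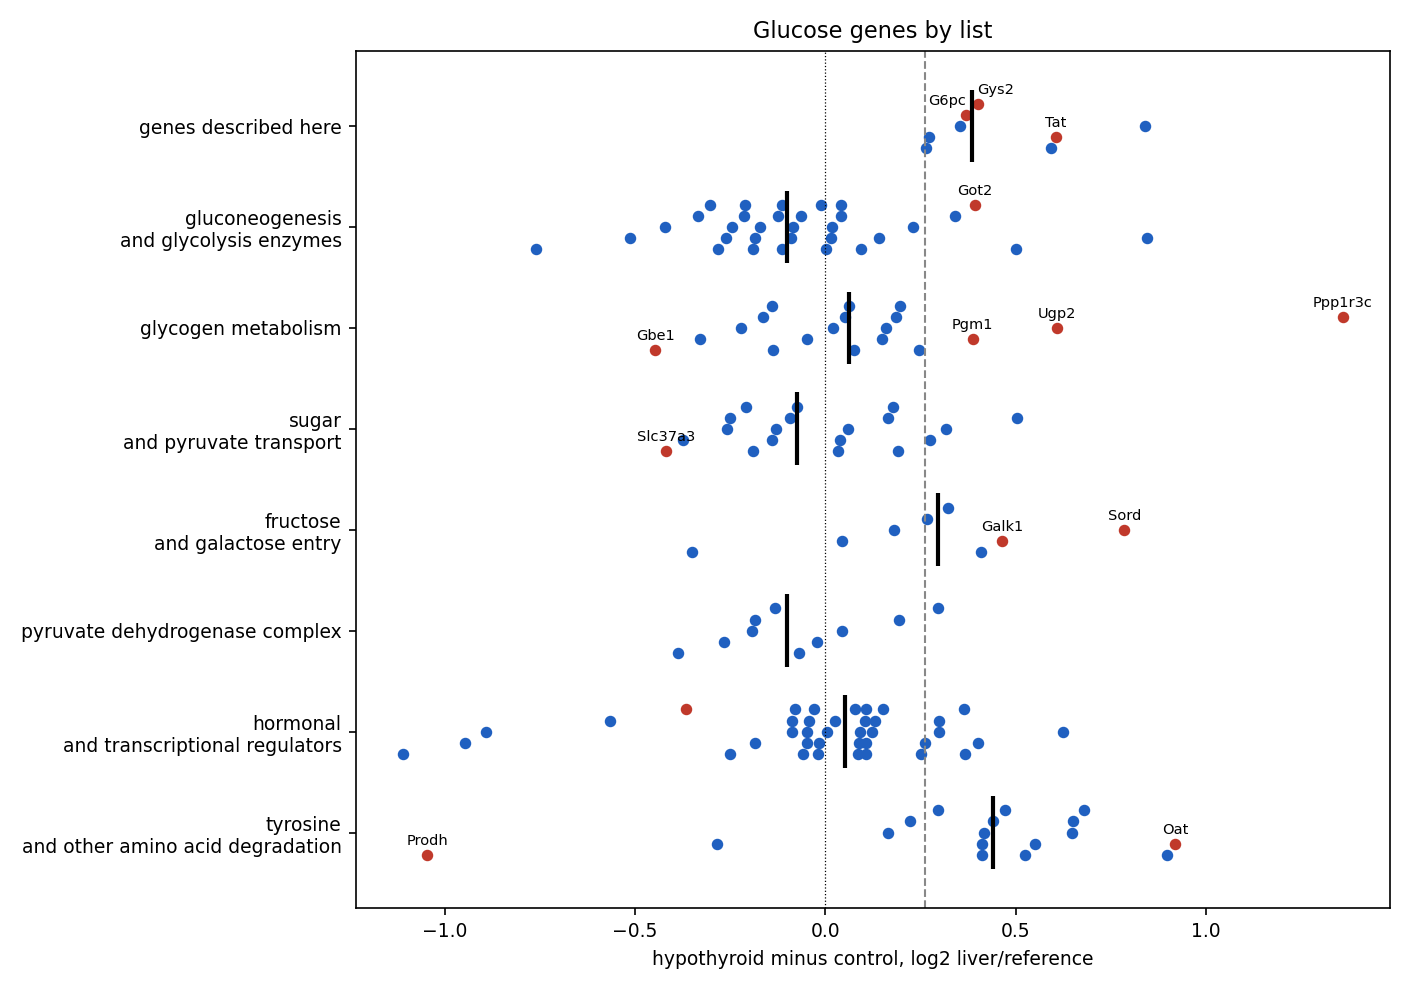
Hypothyroid minus control difference in log2 ratio for the 8 genes and for each gene of the 7 other lists, by main probe. Red points are genes whose groups did not overlap, named where they are described in the text, short black lines are list medians, the dotted line is 0 and the dashed line the median (0.26) of the probes with a mean ratio above 2. The medians of amino acid degradation (0.44), of the 8 genes (0.39) and of fructose and galactose entry (0.30) lie to the right of the dashed line, and Ppp1r3c is farthest right.

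Of 19 glycogen genes tested, 3 were higher and 1 lower without overlap. At an unadjusted p of 0.05, 4 were higher and 1 lower, with a median difference of 0.06. Ugp2, which makes UDP-glucose for glycogen synthesis, was at 1.87, 2.11, 2.09, 1.47 and 1.83 on the control arrays and at 2.56, 2.39, 2.45, 2.51 and 2.51 on the hypothyroid arrays. The groups did not overlap, and the difference was 0.61 ± 0.11 (limma adjusted p = 0.148). Without control 616 it was 0.51, with an adjusted p of 0.0439 by limma, and Ugp2 was then the 1 gene of the 143 that passed.

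Ppp1r3c, a glycogen-targeting subunit of protein phosphatase 1, was at 3.54, 3.75, 2.48, 1.68 and 2.81 on the control arrays and at 4.52, 4.22, 4.40, 4.10 and 3.82 on the hypothyroid arrays. It had no overlap and the difference was 1.36 ± 0.34 (limma adjusted p = 0.321), 1.07 without control 616. Pgm1, phosphoglucomutase, was 0.39 ± 0.12 higher (limma adjusted p = 0.516) without overlap. Gbe1, the glycogen branching enzyme, was the 1 glycogen gene lower without overlap, at -0.45 ± 0.10 (limma adjusted p = 0.288). Glycogen phosphorylase (Pygl) differed by 0.25 ± 0.27, Gys1 by -0.33 ± 0.25 and Ppp1r3b by -0.16 ± 0.24.

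Among the 32 other enzymes of gluconeogenesis and glycolysis, 2 were higher and 2 lower at an unadjusted p of 0.05 and the median difference was -0.10. The sign of this median depended on control 616, without which it was 0.06. The mean was higher in 12 of the 32 with control 616 and in 19 without it. With all 10 arrays Got2, the mitochondrial aspartate aminotransferase, was 0.39 ± 0.16 higher without overlap. The mitochondrial Pck2 differed by -0.17 ± 0.18, G6pc3 by -0.09 ± 0.09, Fbp2 by -0.01 ± 0.07 and Pfkfb1 by -0.06 ± 0.17.

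Transporters were split, with 2 of 19 higher and 2 lower at an unadjusted p of 0.05 and a median of -0.08. Slc37a3, of the sugar phosphate exchanger family, was lower without overlap, at -0.42 ± 0.08 (limma adjusted p = 0.143). Slc37a4, which brings glucose-6-phosphate to G6pc, differed by 0.04 ± 0.22, and Slc2a1, Slc2a9 and Mpc1 by -0.37 ± 0.44, 0.16 ± 0.20 and 0.03 ± 0.10. Of 8 genes of fructose and galactose entry, 1 was higher at an unadjusted p of 0.05 and 2 were higher without overlap. These were Galk1, galactokinase, at 0.46 ± 0.13 (limma adjusted p = 0.394), and Sord, sorbitol dehydrogenase, at 0.79 ± 0.36 (limma adjusted p = 0.674), which was 0.38 without control 616. Khk, ketohexokinase, differed by 0.32 ± 0.19.

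None of 10 genes of the pyruvate dehydrogenase complex was higher and 2 were lower at an unadjusted p of 0.05, with a median of -0.10. Pdp1, the phosphatase that turns the complex on, differed by -0.39 ± 0.09 (limma adjusted p = 0.305), and the kinases Pdk4 and Pdk2, which turn it off, by 0.19 ± 0.12 and 0.30 ± 0.19. Of 38 regulators none was higher and 4 were lower at an unadjusted p of 0.05, with a median of 0.05. Ppargc1b, the relative of Ppargc1a, was at 0.98, 0.35, 1.18, 0.59 and 0.81 on the control arrays and at 0.27, 0.23, -0.03, 0.41 and 0.20 on the hypothyroid arrays. It overlapped only between control 832 and hypothyroid 723, with a difference of -0.57 ± 0.15 (limma adjusted p = 0.355). Cebpb, a C/EBP transcription factor, differed by -1.11 ± 0.31 (limma adjusted p = 0.415).

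Receptors and factors upstream of the gluconeogenic genes differed by less than 2 SE. The glucagon receptor Gcgr differed by 0.30 ± 0.19, Nr3c1, the glucocorticoid receptor, by 0.08 ± 0.10, Foxo1 by -0.18 ± 0.21, Hnf4a by 0.30 ± 0.36, Cebpa by 0.36 ± 0.29, Mlxipl by 0.25 ± 0.28 and Klf15 by 0.26 ± 0.19. The insulin receptor substrate Irs2 was not analysed here.

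Amino acid degradation is the pathway Tat belongs to. Of 17 other genes 15 had a higher mean, with a median of 0.44, and 14 without control 616, with a median of 0.16. The median ratio of these genes in the control livers was 4.05. Among all probes with a mean ratio above 3, 88.2% had a higher mean, with a median difference of 0.34. Without control 616 this share was 74.2%, with a median of 0.11. At an unadjusted p of 0.05, 2 of the 17 genes were higher and 1 lower, and without control 616 these were 6 and 2 (3.43% and 3.92% of all probes). Among probes with a mean ratio above 2 these shares were 12.1% and 6.27% without control 616, and 11.8% and 2.63% with it. Oat, ornithine aminotransferase, was at 1.00, 1.28, 1.26, 0.28 and 1.02 on the control arrays and at 2.04, 1.74, 2.26, 1.32 and 2.07 on the hypothyroid arrays. It did not overlap and differed by 0.92 ± 0.22 (limma adjusted p = 0.296), 0.75 without control 616. Prodh, proline dehydrogenase, went the other way, from 2.61, 3.09, 2.83, 2.53 and 2.45 to 1.89, 1.97, 1.64, 0.76 and 2.02, a difference of -1.05 ± 0.23 (limma adjusted p = 0.238) without overlap. Hpd, which follows Tat in tyrosine breakdown, differed by 0.68 ± 0.36, and Tdo2, which opens tryptophan breakdown, by 0.42 ± 0.26.

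Markers of cell types were read on the same arrays. All 8 hepatocyte markers measured were above background on each array, and their mean ratio was 2.25 on control 616, 4.09 to 4.83 on the other controls and 4.23 to 4.97 on the hypothyroid arrays. All 11 exocrine pancreas markers tested had a lower hypothyroid mean. Their mean ratio was 3.93, 4.00 and 2.37 on controls 832, 522 and 616, 0.13 and 0.15 on the other 2 controls and 0.05 to 0.17 on the hypothyroid arrays. Endocrine pancreas markers were at 1.00 and 0.84 on controls 832 and 522 and at 0.01 to 0.16 on the other 8 arrays. Adipose markers were at 2.18 on hypothyroid 311 and at 0.07 to 0.30 elsewhere. The part of these markers in the results was not tested.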

How the data were processed

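Arrays of 5 control and 5 hypothyroid livers were used, grouped by their labels. For each spot the authors deposited the median signal intensity, the background intensity and the scanner software's processed signal intensity of both channels, with no normalization between arrays. Here the median intensities were background corrected by normexp (offset 50) and normalized by loess (span 0.2) in limma 3.58.1 (R 4.3.3), after the channels of slide 141 were exchanged. Control spots and outlier spots were left out, and repeated spots were averaged. Negative control spots set the background limit (5% trimmed mean plus 3 trimmed SDs), and probes above it in 4 of 5 arrays of a group were tested (32053 of 41174), and p-values were adjusted over them by the Benjamini-Hochberg method. Accessions of 23374 probes matched a symbol in the RefSeq table of GRCm38.p6.

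A gene's main probe had the highest mean liver signal. Probes of other genes were named by a rule that took a fixed set of pathway genes, those with no overlap between groups or an unadjusted p below 0.01, the 3 genes most like each of the 8 by Pearson's r, and Dio1, Thrsp and Me1. The 9 genes and the lists were chosen with earlier results of these data known. The reference channel was examined after the ratios had been seen. In the liver and reference channels alone, the A values were quantile normalized after loess.

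The alternatives concerned normalization (processed signals, uncorrected background, centring on the median, a loess span of 0.3), the quantity (liver channel alone, dyes as labelled, genes in place of probes), the filter (none, or above the limit on all 10 arrays) and the test (slide as fixed block, slide as random block with statmod 1.5.0, the Fs test with 100 residual shuffles). Slide 141 and each array were also left out. Keeping outlier spots, scaling each array by its slope, and the liver channel without control 616 were added after the data were seen. Precision is limited by the number of arrays. Where p-values are given they rest on the spread between arrays. With 1 array per pup, differences between pups cannot be told apart from those of array, slide and hybridisation. The programs were tested on simulated data. The miRNA arrays of the series and the authors' own table of fold changes were not used. Some genes of the lists are counted but not reported by name here.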

Additional observations from a re-analysis of the deposited data

Results flagged for a closer look

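Of 18 groups of arrays (9 probes, 2 groups), 6 had an array whose gap to its nearest neighbour took up an unusual share of the group's range, by Dixon's test at the 95% level, which chance gives in about 5% of groups. In 5 of the 6 the array was control 616, and it was the lowest control. The share was 0.79 in G6pc, 0.77 in Fbp1, 0.77 in Slc2a2 (main probe), 0.93 in Tat and 0.97 in Gys2. In the sixth, hypothyroid 723 was the highest of its group for Gys2, with a share of 0.86, at 5.61 against 5.46 on the next array.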

How the results depend on the processing

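None of the 8 genes passed an adjusted p of 0.05 by limma under any of the alternatives run, nor by the Fs test, and the lowest adjusted p was 0.213 (G6pc, liver channel without control 616). At an unadjusted p of 0.05, 1 of them passed. This became 0 with median centring, the dyes as labelled, the filter on all 10 arrays (which removes Tat), slide as a fixed block or ratios scaled by slope, 2 with processed signals, a loess span of 0.3, the Fs test or without slide 141, 3 with slide as a random block and 4 in the liver channel with or without control 616. The 3 genes without overlap became 0 with no background correction, median centring, the dyes as labelled or slope scaling, and 1 with processed signals or the liver channel with or without control 616. With 1 array left out, 1 to 3 genes passed at an unadjusted p of 0.05. The difference turned to -0.27 in Ppargc1a with the dyes as labelled, to -0.20 in Pklr in the liver channel without control 616, and with slope scaling to -0.18 in G6pc, -0.14 in Pcx, -0.11 in Tat and -0.23 in Gys2, leaving 4 of 8 genes higher. The cause of the other changes was not tested.

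Of the other pathway genes 11 were higher and 12 lower at an unadjusted p of 0.05. These counts were 2 and 0 with median centring and 0 and 0 with the dyes as labelled. The higher count was 17 in the liver channel and by the Fs test, and the lower count was 21 in the liver channel without control 616. With 1 array left out, 6 (without hypothyroid 311) to 18 (without control 522) were higher and 10 to 14 lower, and after adjustment 0 to 1 passed, the 1 being Ugp2 without control 616. By animal number, no paired analysis was possible because the control and hypothyroid arrays share no animal number. Arrays that share a slide were compared within slides and with slide as a block, as given above.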
